A study of Homo sapiens with 8 samples.

Results

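Genes of inflammation were followed in a pair of human acute myeloid leukemia cell lines treated with an inhibitor of LSD1, the histone demethylase encoded by KDM1A. They were the 10 rows of the deposited count table, of 33045 gene names, that are called CCL2, TNF, IL1RN, IL1B, IL8, CCL3, CCL4, ICAM1, NFKBIA and TNFAIP3, chosen by name and by no measured value. The LSD1i groups received DDP38003 at 0.5 µM and the vehicle groups received vehicle alone. THP-1, a monocytic line that carries a KMT2A fusion and is described by the study as resistant to the inhibitor, was sampled at 72 and 24 h. KASUMI-1, a line with the RUNX1::RUNX1T1 fusion that the study describes as sensitive, was sampled at 72 and 6 h. The study chose the times in each line by when the kinase mTOR responded to the inhibitor, so the early times differ between lines. Each combination of line, agent and time was 1 library of 23722972 to 45970766 counted reads, which gave 4 matched pairs and no replicate of any pair. Each line is a single established culture model without the other cells of marrow or blood, and the labels do not state whether cultures were independent. P-values therefore measure the spread between these libraries, with the different times of a line treated as replicates. In the main tests of LSD1i against vehicle libraries were matched in pairs. This leaves the disagreement of the ratio between times, pooled with that of other genes.

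CCL2, IL8, CCL3 and CCL4 encode chemokines, secreted proteins that attract leukocytes. CCL2 attracts monocytes through the receptor CCR2, and IL8 (current symbol CXCL8) attracts neutrophils through CXCR1 and CXCR2. TNF and IL1B encode cytokines that activate the transcription factor NF-kB in the cells that bind them, and IL1RN encodes the antagonist that occupies the interleukin 1 receptor without activating it. ICAM1 encodes an adhesion molecule bound by the beta 2 integrins of leukocytes. NFKBIA encodes IkB alpha, which holds NF-kB in the cytoplasm, and TNFAIP3 encodes A20, a ubiquitin-editing enzyme that dampens the signal upstream of it. Both inhibitors are themselves induced by NF-kB, and monocytes and macrophages are a major source of most of these ligands.

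Promoter sequences were taken from RefSeq (GRCh38.p14), as the 250 bases before the annotated start, to show what kind of NF-kB motif lies beside genes that shared this pathway but not a response. They are printed 5′ to 3′ on the gene's own strand. Capitals mark matches to GGAANNTCC on either strand or to the NF-kB consensus, and the TNF stretch has neither.
ICAM1, chr19:10270870-10271119, plus strand: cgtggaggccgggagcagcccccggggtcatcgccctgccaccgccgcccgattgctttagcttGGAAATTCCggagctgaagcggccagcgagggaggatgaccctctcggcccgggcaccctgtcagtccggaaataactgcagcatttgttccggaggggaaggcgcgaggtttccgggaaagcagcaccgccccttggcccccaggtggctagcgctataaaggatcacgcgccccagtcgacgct
TNF, chr6:31575315-31575564, plus strand: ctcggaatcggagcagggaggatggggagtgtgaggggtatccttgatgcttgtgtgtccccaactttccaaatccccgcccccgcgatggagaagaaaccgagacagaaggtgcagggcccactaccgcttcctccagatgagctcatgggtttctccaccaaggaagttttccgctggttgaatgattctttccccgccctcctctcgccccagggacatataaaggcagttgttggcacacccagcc
CXCL8, chr4:73740319-73740568, plus strand: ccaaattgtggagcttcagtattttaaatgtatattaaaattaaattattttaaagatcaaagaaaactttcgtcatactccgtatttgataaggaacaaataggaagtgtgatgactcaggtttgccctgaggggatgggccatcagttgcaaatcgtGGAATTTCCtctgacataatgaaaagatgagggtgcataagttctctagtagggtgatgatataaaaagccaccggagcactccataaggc
NFKBIA, chr14:35404750-35404999, minus strand: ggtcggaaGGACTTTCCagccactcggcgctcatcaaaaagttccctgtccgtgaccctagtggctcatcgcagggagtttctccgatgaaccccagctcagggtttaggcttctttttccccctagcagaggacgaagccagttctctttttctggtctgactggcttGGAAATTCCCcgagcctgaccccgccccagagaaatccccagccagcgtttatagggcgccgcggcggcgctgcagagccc

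Promoters were matched for 8 of the 10 genes, all but CCL2 and CCL4. GGAANNTCC lay 186 to 178 bases before the ICAM1 start, 91 to 83 before the CXCL8 start, 81 to 73 before the NFKBIA start and 67 to 59 before the TNFAIP3 start. NFKBIA had another match on the opposite strand, 242 to 234 bases before its start. The match nearest the NFKBIA start overlapped a match to the NF-kB consensus, as did the TNFAIP3 match, GGAAAGTCCC, which was followed by another consensus match, GGAAATCCCC, 55 to 46 bases before the start. CXCL8 also held TGACTCA, a match to the AP-1 motif TGANTCA, 137 to 131 bases before its start. IL1RN held TGAGTCA, another match to it, 223 to 217 bases before 1 of its 3 starts. TATAAA on the gene's strand lay 30 to 25 bases before the ICAM1 start, 29 to 24 before the TNF start and 31 to 26 before the CXCL8 start. It also lay 30 to 25 bases before 1 of the 3 IL1RN starts and 29 to 24 before 1 of the 3 CCL3 starts. No GGAANNTCC or consensus match was found in this window of TNF, IL1B, IL1RN (3 starts) or CCL3 (3 starts). A missing match is not a missing site, since sites that depart from these patterns or lie beyond the window were not searched. Searched on both strands over 34788 promoters of this length, GGAANNTCC was in 3.85%, the NF-kB consensus in 5.21%, TGANTCA in 6.59% and TATAAA in 10.8%. The motif was chosen with the published sites of CXCL8, ICAM1 and NFKBIA in mind, so its presence in these promoters is no finding.

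The question of the first comparison was which of these genes differed between LSD1i and vehicle libraries of THP-1. CCL2, TNF, IL1RN, IL1B and ICAM1 rose several-fold, NFKBIA and TNFAIP3 rose by less than 1.5-fold in the fit, and IL8 and CCL3 did not pass the test. Both pairs of a line entered a quasi-likelihood fit in edgeR, with p-values adjusted by Benjamini and Hochberg over 16060 genes at 0.05. It called 7 of the 10 genes higher and none lower, where 6.51% of all genes tested were called higher and 2.85% lower. The median fitted log2 value of the 9 genes tested was 1.69, beside -0.01 over all genes. That count and median describe the list and do not support it. CCL2 and CCL3 passed the filter on low counts through their THP-1 reads alone, and CCL4 did not pass. IL1RN had at most 11 reads in any KASUMI-1 library, near the minimum count of 10. In the single pairs, CCL2, TNF, IL1RN, IL1B and ICAM1 were at least 2-fold higher under LSD1i at both times, with a counting interval that excluded equality. These were 5 of the 8 members with a mean of at least 2 CPM (read counts divided by the TMM-scaled library size), beside 3.25% of all such genes at 72 h and 2.77% at 24 h. That mean is over both libraries of a pair. Under vehicle at 72 h CCL2, TNF, IL1B and ICAM1 had 0.332, 1.45, 1.47 and 1.14 CPM, and at 24 h CCL2 and ICAM1 had 1.93 and 0.757. These members entered the count through their LSD1i libraries, so it is a description as well. In RNA from whole cultures, more cells of a type and more RNA per cell cannot be told apart.

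**Figure D1:**
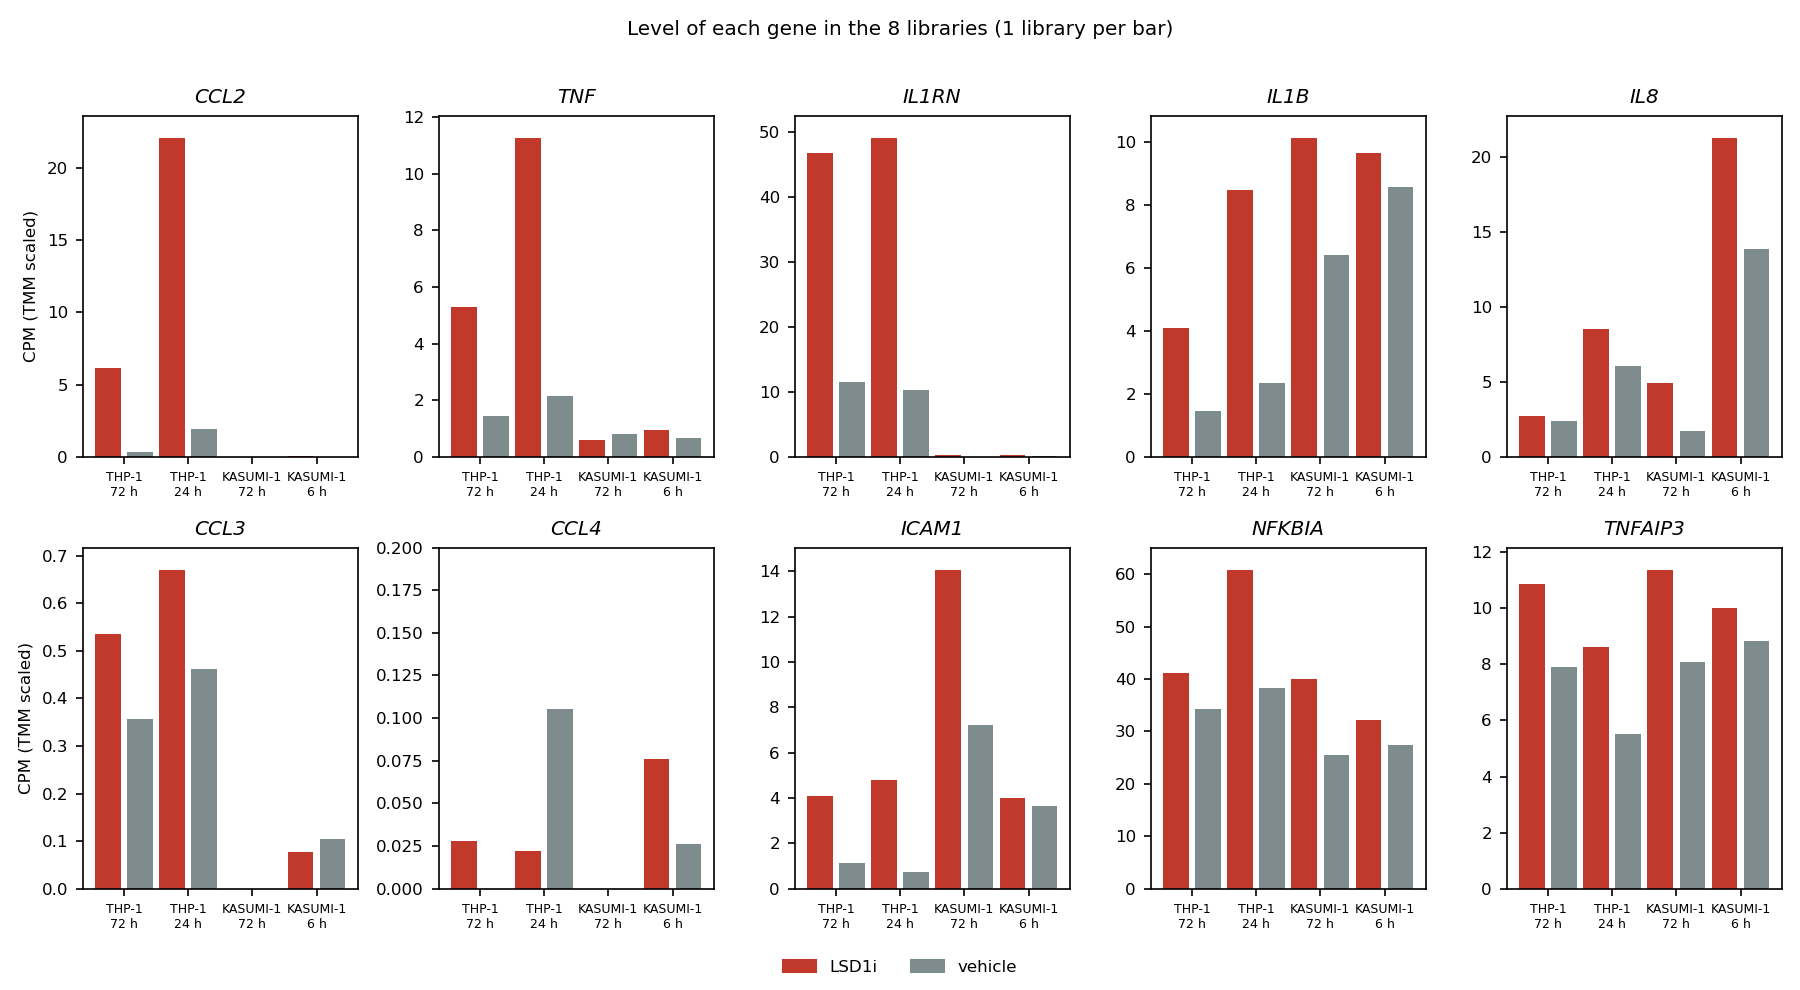
CPM, scaled by TMM, of each of the 10 genes in each of the 8 libraries, with LSD1i in red and vehicle in grey. Each bar is 1 library, so there is no error bar, and each panel has its own axis starting at 0. The CCL2 bars of THP-1 are 6.18 and 22.1 under LSD1i at 72 and 24 h, and those of KASUMI-1 lie at or near 0.

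CCL2 lies on chromosome 17 at 29606409 to 29608329 of NCBI36, on the plus strand, with 3 exons. In THP-1 it had 219 reads in the LSD1i library and 14 in the vehicle library at 72 h, and 988 in the LSD1i library and 92 in the vehicle library at 24 h. The LSD1i libraries lay above the vehicle libraries with no overlap, although the vehicle libraries themselves differed between the times. Scaled reads were 18.6 times those of vehicle at 72 h (95% counting interval 10.9 to 34.6) and 11.4 times at 24 h (9.22 to 14.3). Over both pairs the fitted log2 value was 3.73 ± 0.25 (SE; edgeR, adjusted p = 2.7e-08). KASUMI-1 had 3 CCL2 reads in the LSD1i library at 6 h and none in its other 3 libraries. At that depth the floor of 3 reads corresponds to 0.073 to 0.134 CPM in a KASUMI-1 library, and no fold is given for KASUMI-1.

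TNF lies on chromosome 6 at 31651329 to 31654091, plus strand, in the major histocompatibility region. Its reads in THP-1 were 188 in the LSD1i library and 61 in the vehicle library at 72 h, and 504 in the LSD1i library and 102 in the vehicle library at 24 h. Every LSD1i library exceeded every vehicle library. The ratio was 3.67 at 72 h (2.73 to 4.98) and 5.26 at 24 h (4.24 to 6.57), and the fitted log2 value was 2.16 ± 0.24 (edgeR, adjusted p = 7.2e-06). In KASUMI-1 TNF had 25 reads in the LSD1i library and 18 in the vehicle library at 72 h, and 38 in the LSD1i library and 26 in the vehicle library at 6 h. Those groups overlapped on the scaled level, with ratios of 0.76 (0.398 to 1.48) and 1.42 (0.838 to 2.43), and the fitted value was 0.12 ± 0.35 (edgeR, adjusted p = 0.883). Without the 6 h pair the KASUMI-1 value was -0.39. The counting annotation listed TNF on 3 sequences, chromosome 6 and alternative haplotypes of it, and reads that map to several places were left out, so its level may be too low in every library.

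IL1B, on chromosome 2 at 113303808 to 113310827, minus strand, had 145 reads in the LSD1i library and 62 in the vehicle library of THP-1 at 72 h, and 380 in the LSD1i library and 112 in the vehicle library at 24 h. The THP-1 groups did not overlap. The ratio was 2.78 at 72 h (2.05 to 3.81) and 3.61 at 24 h (2.92 to 4.5), with a fitted log2 value of 1.69 ± 0.21 (edgeR, adjusted p = 2.5e-05). KASUMI-1 had 416 reads in the LSD1i library and 144 in the vehicle library at 72 h, and 380 in the LSD1i library and 327 in the vehicle library at 6 h. The KASUMI-1 levels of 10.1 and 9.66 CPM under LSD1i lay above the 6.41 and 8.58 CPM under vehicle, and all but 1 of the THP-1 libraries lay below every KASUMI-1 library. The KASUMI-1 ratio was 1.58 at 72 h (1.31 to 1.92) and 1.13 at 6 h (0.969 to 1.31), and the fitted value of 0.40 ± 0.19 did not pass (edgeR, adjusted p = 0.18).

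IL1RN, on chromosome 2 at 113585164 to 113608063, plus strand, had the highest level per length among the 7 secreted members in the THP-1 LSD1i library at 72 h. It had 1656 reads in the LSD1i library and 488 in the vehicle library of THP-1 at 72 h, and 2195 in the LSD1i library and 491 in the vehicle library at 24 h. The ratios of 4.04 at 72 h (3.65 to 4.47) and 4.75 at 24 h (4.31 to 5.25) were alike, and the fitted log2 value was 2.13 ± 0.16 (edgeR, adjusted p = 7.3e-08). KASUMI-1 held few IL1RN reads, 11 in the LSD1i library and none in the vehicle library at 72 h, and 10 in the LSD1i library and 3 in the vehicle library at 6 h. Setting the empty vehicle library of 72 h to its floor of 3 reads, IL1RN was at least 2.01-fold higher there, and the counting interval of that ratio had a lower limit of 1.37. Summed over both times, 21 reads under LSD1i against 3 under vehicle gave a ratio of 5.28 (1.58 to 27.6). IL1RN passed the test in KASUMI-1 (edgeR, adjusted p = 0.0397), but not with DESeq2 (adjusted p = 0.058), and without the KASUMI-1 72 h pair edgeR's adjusted p was 0.4. Leaving out the THP-1 pair of 72 h gave 0.0628, that of 24 h gave 0.0681, and a fit without the terms that match the pairs gave 0.13.

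IL8, on chromosome 4 at 74825122 to 74828295, plus strand, was called in KASUMI-1 and not in THP-1. THP-1 had 97 reads in the LSD1i library and 100 in the vehicle library at 72 h, and 382 in the LSD1i library and 288 in the vehicle library at 24 h. The THP-1 groups overlapped, with ratios of 1.15 (0.863 to 1.54) and 1.41 (1.21 to 1.65), and the fitted log2 value was 0.38 ± 0.21 (edgeR, adjusted p = 0.36). In KASUMI-1 there were 202 reads in the LSD1i library and 38 in the vehicle library at 72 h, and 835 in the LSD1i library and 528 in the vehicle library at 6 h. IL8 rose within both KASUMI-1 pairs, by ratios of 2.91 at 72 h (2.05 to 4.23) and 1.53 at 6 h (1.37 to 1.71), but the groups overlapped across the times. The fitted value was 0.94 ± 0.21 (edgeR, adjusted p = 0.00831). Without the 72 h pair it was 0.61 (adjusted p = 0.144), and without pair terms 0.72 (0.739).

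CCL3 and CCL4, neighbours on chromosome 17 at 31439718 to 31441619 and 31455333 to 31457778, were near the detection floor. CCL3 had 19 reads in the LSD1i library and 15 in the vehicle library of THP-1 at 72 h, and 30 in the LSD1i library and 22 in the vehicle library at 24 h. Its ratios of 1.51 (0.725 to 3.19) and 1.45 (0.809 to 2.64) were within counting error of equality, and the fitted log2 value of 0.56 ± 0.41 did not pass (edgeR, adjusted p = 0.528). KASUMI-1 had 3 CCL3 reads under LSD1i and 4 under vehicle, all at 6 h. CCL4 had at most 5 reads in any library. Near-identical copies of both genes exist and reads shared between copies were not counted, so both levels are uncertain.

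ICAM1, on chromosome 19 at 10242765 to 10258291, plus strand, had 145 reads in the LSD1i library and 48 in the vehicle library of THP-1 at 72 h, and 215 in the LSD1i library and 36 in the vehicle library at 24 h. These groups did not overlap. The ratio was 3.59 at 72 h (2.58 to 5.09) and 6.35 at 24 h (4.45 to 9.31), with a fitted log2 value of 2.25 ± 0.27 (edgeR, adjusted p = 1.7e-05, and 0.0667 without pair terms). KASUMI-1 had 578 reads in the LSD1i library and 162 in the vehicle library at 72 h, and 158 in the LSD1i library and 139 in the vehicle library at 6 h. There the ratio was 1.95 at 72 h (1.64 to 2.34) and 1.10 at 6 h (0.872 to 1.39), and the fitted value of 0.58 ± 0.23 did not pass (edgeR, adjusted p = 0.114). Without the KASUMI-1 6 h pair the value was 0.97 and passed (edgeR, adjusted p = 0.0029).

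The NF-kB inhibitors had 182 to 2722 reads in every library. NFKBIA, on chromosome 14 at 34940475 to 34943703, minus strand, had 1455 reads in the LSD1i library and 1442 in the vehicle library of THP-1 at 72 h, and 2722 in the LSD1i library and 1821 in the vehicle library at 24 h. The THP-1 levels were 41.1 and 60.8 CPM under LSD1i and 34.2 and 38.3 CPM under vehicle, without overlap. The ratio was 1.2 at 72 h (1.12 to 1.29) and 1.59 at 24 h (1.5 to 1.69). In KASUMI-1 it was 1.57 at 72 h (1.42 to 1.73) and 1.17 at 6 h (1.08 to 1.27), with 1641 reads in the LSD1i library and 573 in the vehicle library at 72 h, and 1266 in the LSD1i library and 1048 in the vehicle library at 6 h. The KASUMI-1 levels of 40.0 and 32.2 CPM under LSD1i likewise lay above the 25.5 and 27.5 CPM under vehicle. The fitted log2 values were 0.47 ± 0.14 in THP-1 and 0.43 ± 0.15 in KASUMI-1, on either side of the threshold (edgeR, adjusted p = 0.0499 and 0.0623). The THP-1 call was lost with DESeq2 (adjusted p = 0.103), with RLE scaling (0.0502), without pair terms (0.336) and without either THP-1 pair (0.131 without 72 h and 0.682 without 24 h).

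TNFAIP3, on chromosome 6 at 138230274 to 138246135, plus strand, had 385 reads in each LSD1i library of THP-1, and 333 and 262 in its vehicle libraries at 72 and 24 h. These were 10.9 and 8.6 CPM under LSD1i and 7.91 and 5.51 CPM under vehicle, so the THP-1 groups did not overlap. In KASUMI-1 it had 467 and 394 reads under LSD1i and 182 and 336 under vehicle, at 72 and 6 h, also without overlap in CPM. The ratios were 1.38 (1.18 to 1.6) and 1.56 (1.33 to 1.84) in THP-1 at 72 and 24 h, and 1.4 (1.18 to 1.68) and 1.14 (0.98 to 1.32) in KASUMI-1 at 72 and 6 h. TNFAIP3 passed the test in THP-1 at 0.55 ± 0.17 (edgeR, adjusted p = 0.0483) and did not in KASUMI-1 at 0.33 ± 0.17 (adjusted p = 0.223). DESeq2 did not call it in THP-1 (adjusted p = 0.208), and neither did edgeR once the 72 h pair (0.35) or the 24 h pair (0.465) of that line, or the pair terms (0.376), were left out.

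**Figure D2:**
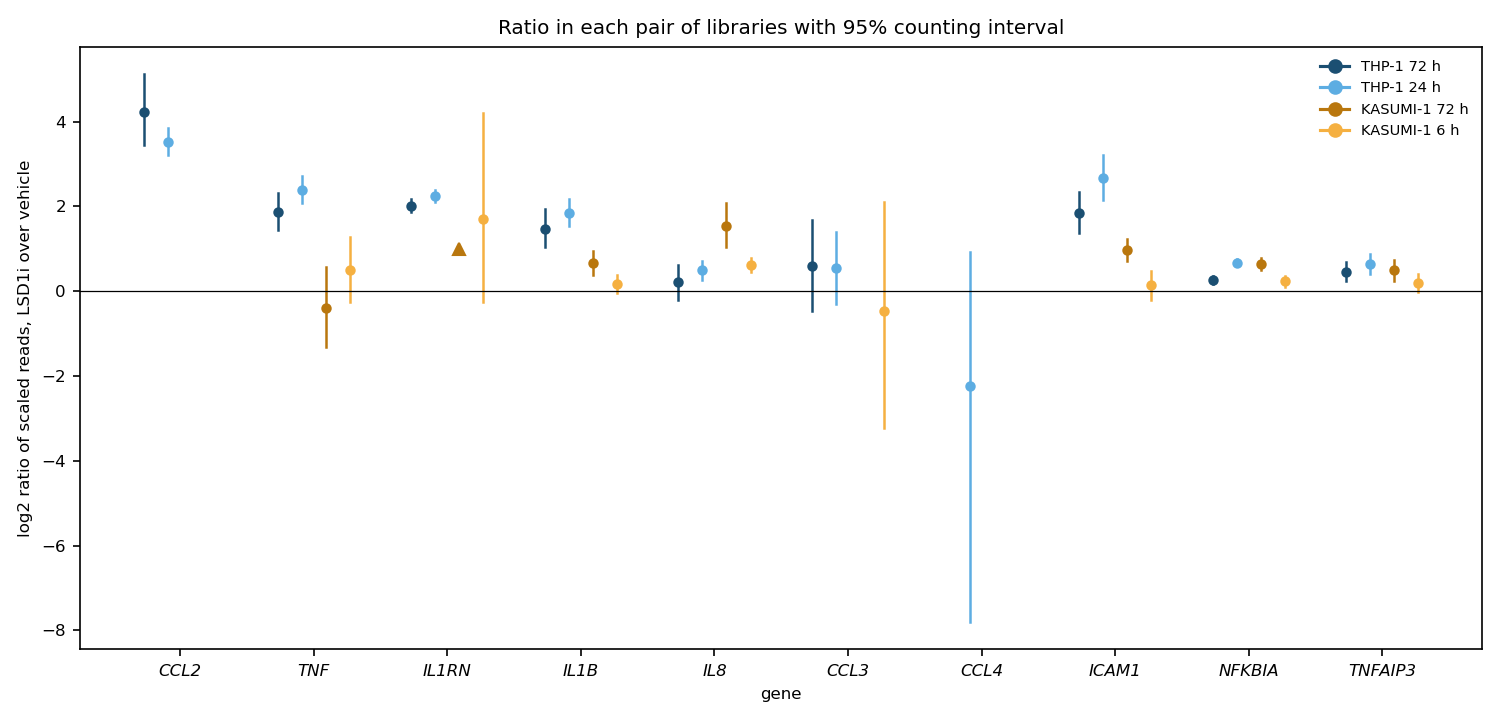
Log2 ratio of scaled reads, LSD1i over vehicle, in each of the 4 pairs, with vertical lines for the 95% counting interval, which covers counting error alone. Pairs with at most 3 reads in both libraries are left out, and the triangle marks a lower bound for IL1RN in KASUMI-1 at 72 h, whose vehicle library had no reads. CCL2, TNF, IL1RN, IL1B and ICAM1 lie above 2-fold in both THP-1 pairs, and IL8 does so in the KASUMI-1 72 h pair.

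In KASUMI-1 as a whole, IL1RN and IL8 were the members called higher and none was called lower. These 2 of 9 tested members stand beside 7.02% of all genes called higher and 5.09% called lower in that line, and the median log2 value was 0.42 over the 8 members with more than 3 reads in an agent group and 0.02 over all genes. CCL2 and CCL3, with at most 4 reads in any KASUMI-1 library, passed the filter through THP-1 alone. IL1RN, called here, had at most 11 reads in any KASUMI-1 library, near the minimum count of 10, and far more in THP-1. This count and median are therefore descriptions as well. In the 72 h pair 1 of 5 members with a mean of at least 2 CPM, IL8, was at least 2-fold higher, beside 3.37% of such genes. In the 6 h pair it was 0 of 5, beside 0.785%. IL8 had 1.69 CPM under vehicle at 72 h, so it entered that count through its LSD1i library (4.92 CPM). For IL1B, IL8, ICAM1, NFKBIA and TNFAIP3 the KASUMI-1 ratio was larger at 72 h than at 6 h, and TNF, the other member with over 10 reads in all 4 KASUMI-1 libraries, had the smaller ratio at 72 h. The count of 2 was 0 without the KASUMI-1 72 h pair and 4 without the 6 h pair, when ICAM1 and NFKBIA were added.

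The difference between the lines was tested directly, as the LSD1i coefficient of THP-1 minus that of KASUMI-1. TNF, ICAM1 and IL1B rose more in THP-1, by 2.04 ± 0.43, 1.67 ± 0.36 and 1.28 ± 0.28 on the log2 scale (edgeR, adjusted p = 0.0103, 0.0122 and 0.0149). No member rose more in KASUMI-1. These 3 of 9 tested members stand beside 3.07% of all genes with a larger and 2.62% with a smaller coefficient in THP-1. Since CCL2 and CCL3 passed the filter through their THP-1 reads alone, this count is a description as well. The difference of IL8 was -0.57 ± 0.30 (edgeR, adjusted p = 0.289), that of NFKBIA 0.03 ± 0.21 (0.959) and that of TNFAIP3 0.22 ± 0.24 (0.656). Those errors leave room for a difference in either direction. IL1RN, with 24 reads in all KASUMI-1 libraries, had a difference of -0.23 ± 0.66 (adjusted p = 0.897), and for CCL2 no difference is given, since KASUMI-1 was at the floor. Without the THP-1 24 h pair none of the 3 passed (adjusted p = 0.188 for TNF, 0.22 for ICAM1 and 0.234 for IL1B), and without the THP-1 72 h pair IL1B did not (0.0659). Without the KASUMI-1 6 h pair IL8 passed, at -1.17 (adjusted p = 0.0318). Without the KASUMI-1 72 h pair the 3 differences passed, and without pair terms none did (0.255 for TNF, 0.472 for ICAM1 and 0.352 for IL1B).

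**Figure D3:**
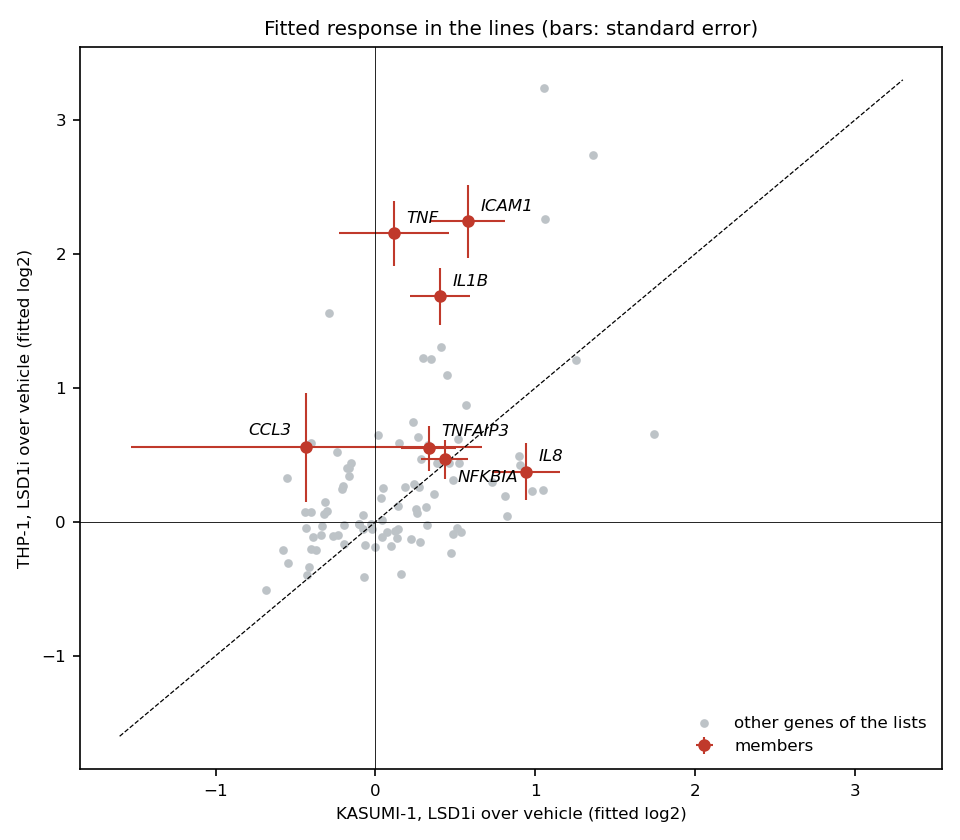
Fitted log2 value of LSD1i over vehicle in THP-1 (vertical) against KASUMI-1 (horizontal) for members in red, with standard errors, and for other genes of the pathway lists in grey. CCL2 and IL1RN are left out for their few KASUMI-1 reads, and the dashed line marks equal values. TNF, ICAM1 and IL1B lie above it by 2.04, 1.67 and 1.28.

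The libraries of a line at 72 h and at its early time were compared within each agent, as single libraries with counting intervals and no test. In THP-1, CCL2 at 72 h was 0.28 times its 24 h level under LSD1i (0.241 to 0.325) and 0.172 times under vehicle (0.0905 to 0.303). IL8 at 72 h was 0.321 times its 24 h level under LSD1i (0.254 to 0.402) and 0.392 times under vehicle (0.309 to 0.494). TNF was 0.471 times under LSD1i and 0.676 times under vehicle, and IL1B 0.482 times under LSD1i and 0.626 times under vehicle. These 4 ligands were therefore lower in the later library of either agent, whereas IL1RN stood at 0.953 times under LSD1i and 1.12 times under vehicle. In KASUMI-1, IL8 at 72 h was 0.232 times its 6 h level under LSD1i (0.198 to 0.27) and 0.122 times under vehicle (0.0854 to 0.17). ICAM1 went the other way in that line, at 3.5 times its 6 h level under LSD1i (2.93 to 4.2) and 1.98 times under vehicle (1.57 to 2.5). A difference of time in culture, density or medium between the libraries was not tested.

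The vehicle libraries were compared between lines to show the starting levels, in a fit of their own. IL1RN, CCL2, CCL3, TNF and NFKBIA were higher in THP-1, and ICAM1 and IL1B were lower. Summed over both times, IL1RN had 979 reads in THP-1 and 3 in KASUMI-1 (ratio 220, 75.2 to 1071) and CCL2 had 106 in THP-1 and none in KASUMI-1 (at least 23.9-fold higher, with KASUMI-1 set to a group floor of 3 reads). CCL3 had 37 reads in THP-1 and 4 in KASUMI-1 (ratio 6.25, 2.25 to 24.1; edgeR, adjusted p = 0.0115). The fitted log2 values were 1.30 ± 0.36 for TNF (edgeR, adjusted p = 0.00994), 0.46 ± 0.17 for NFKBIA (0.0446), -1.96 ± 0.30 for IL1B (2.8e-04) and -2.50 ± 0.38 for ICAM1 (2.7e-04). The lines differ at most genes, with 30.1% of 15456 genes higher and 26.4% lower in THP-1, and the 5 members higher and 2 lower of 9 tested are not read as a result about the members. For IL8 the value was -0.90 ± 0.70 (adjusted p = 0.296), and it was 1.33 without the KASUMI-1 6 h library (adjusted p = 4.9e-04), the vehicle library with the most IL8 reads. Without the THP-1 24 h library it was -1.72 and passed, TNF no longer did (0.99, adjusted p = 0.13), and NFKBIA was not called without that library (0.274), the THP-1 72 h library (0.0898) or the KASUMI-1 72 h library (0.115). CCL3 was not called with DESeq2 (adjusted p = 0.0716).

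Between genes, levels were compared per length, as CPM per kilobase of exon. In THP-1 at 24 h under LSD1i the order was NFKBIA at 39.2, CCL2 at 29.7, IL1RN at 21.2, TNF at 6.75, IL1B at 5.67, IL8 at 4.34, TNFAIP3 at 1.94, ICAM1 at 1.6, CCL3 at 0.844 and CCL4 at 0.0332. Under vehicle at the same time CCL2 stood at 2.6, below IL8 at 3.08 and IL1RN at 4.47, and TNF stood at 1.28 beside TNFAIP3 at 1.24. In KASUMI-1 the leading levels at 72 h under LSD1i were NFKBIA at 25.8, IL1B at 6.76 and ICAM1 at 4.69. At 6 h under LSD1i they were NFKBIA at 20.8, IL8 at 10.8 and IL1B at 6.45. For CCL2 the libraries ran from THP-1 LSD1i at 24 h (29.7) and 72 h (8.32) to THP-1 vehicle at 24 h (2.6) and 72 h (0.447), with KASUMI-1 at or under 0.103. For TNF the same order held in THP-1, at 6.75, 3.18, 1.28 and 0.868, and the 4 KASUMI-1 libraries lay between 0.365 and 0.579 and each ratio between agents or times among them had a counting interval that included equality.

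Receptors of these ligands were read from a list of 13 genes, of which 11 were tested. In THP-1 5 were called higher and none lower, and in KASUMI-1 3 were higher and none lower, with median log2 values of 0.43 and 0.47. Over all genes tested 6.51% were higher in THP-1 and 7.02% in KASUMI-1, with medians of -0.01 and 0.02, and these values stand beside the counts of the lists that follow too. ITGAM, the alpha chain of the ICAM1-binding integrin Mac-1, had 2063 and 2918 reads in THP-1 under LSD1i at 72 and 24 h, against 387 and 441 under vehicle. It rose by 2.74 ± 0.16 in THP-1 and by 1.36 ± 0.29 in KASUMI-1, a difference of 1.38 (edgeR, adjusted p = 1.7e-09, 0.00682 and 0.0318). ITGB2, the beta chain shared by these integrins, rose by 0.52 ± 0.13 in THP-1 (adjusted p = 0.0167) and differed between lines by 0.76 (0.0289). CCR2, the CCL2 receptor, rose by 0.66 ± 0.13 in THP-1, where it had 6987 to 10976 reads per library, and by 1.74 ± 0.24 in KASUMI-1, a difference of -1.08 (edgeR, adjusted p = 0.00265, 1.8e-04 and 0.0286). Among TNF receptors TNFRSF1B rose by 0.47 ± 0.13 in THP-1 (adjusted p = 0.0283), and TNFRSF1A did not pass in THP-1 (-0.10) or KASUMI-1 (-0.34). The accessory chain IL1RAP rose by 0.47 ± 0.14 in KASUMI-1 (0.0388) and had a value of -0.23 in THP-1. CCR1, which binds CCL3, rose by 0.43 ± 0.13 in THP-1 (0.0436).

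Of 9 genes for the subunits and inhibitors of NF-kB, 2 rose in THP-1, and 1 rose and 1 fell in KASUMI-1, with median log2 values of 0.25 and -0.03. NFKBIZ, an atypical nuclear IkB protein, rose by 1.21 ± 0.22 in THP-1 and 1.25 ± 0.21 in KASUMI-1 (edgeR, adjusted p = 0.00117 and 0.00131). BCL3, another nuclear IkB protein, rose by 1.10 ± 0.30 in THP-1 (0.0258), and NFKBIE, a cytoplasmic inhibitor, fell by 0.55 in KASUMI-1 (0.0208). NFKBIE had a value of 0.33 in THP-1, which did not pass, and differed between the lines by 0.89 (edgeR, adjusted p = 0.0182). Of 31 genes of the IKK complex and the signalling above it, 4 rose and none fell in THP-1, and 4 rose and 3 fell in KASUMI-1, with medians of 0.11 and 0.14. The adaptors TIRAP and MYD88 rose in THP-1 by 0.88 ± 0.15 and 0.59 ± 0.13 (edgeR, adjusted p = 6.4e-04 and 0.00451), with TAB2 at 0.44 ± 0.12 (0.022). TIRAP and TAB2 were called in KASUMI-1 too, at 0.57 ± 0.17 and 0.38 ± 0.12 (edgeR, adjusted p = 0.03975 and 0.04755). Their differences between the lines did not pass (edgeR, adjusted p = 0.472 and 0.892). CYLD, a deubiquitinase that restrains the pathway, rose in THP-1 by 0.50 ± 0.15 (0.0461) and in KASUMI-1 by 0.90 ± 0.15 (0.00144), and TRAF2 fell by 0.58 in KASUMI-1 (0.0179).

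Of 32 other cytokines and chemokines 16 passed the filter on low counts, and 1 rose and 1 fell in THP-1 while none rose and 1 fell in KASUMI-1. The gene that fell in THP-1 was CCL23, with 234 and 535 reads under LSD1i at 72 and 24 h against 830 and 907 under vehicle (-1.11 ± 0.20; edgeR, adjusted p = 0.00126). CCL5 fell by 0.68 in KASUMI-1 (adjusted p = 0.0193), and IL15, the gene that rose, had 17 reads under LSD1i and 2 under vehicle in THP-1. IL15 had at most 5 reads in any vehicle library and passed the filter through LSD1i libraries, so the count of 1 that rose is a description. Of 14 other NF-kB target genes tested, 3 rose in THP-1 and 2 in KASUMI-1, with medians of 0.05 and 0.02. TNFAIP8 rose by 1.22 ± 0.15 in THP-1 (1.6e-05) and IRF1, an interferon-linked transcription factor, by 1.05 ± 0.18 in KASUMI-1 (0.00152). The difference between the lines passed for TNFAIP8 (0.87; edgeR, adjusted p = 0.0234) and did not for IRF1 (-0.81, 0.0668). Among 8 regulators of cytokine mRNA stability, ZFP36L1 rose in both lines, by 2.26 ± 0.41 in THP-1 and 1.06 ± 0.24 in KASUMI-1 (0.00114 and 0.00971).

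Genes that process interleukin 1 and relatives of ICAM1 were read from lists of their own. Of 9 tested genes of cytokine processing and inflammasomes, 3 rose in THP-1 and 2 in KASUMI-1, with medians of 0.27 and 0.36 (0.24 in KASUMI-1 over the 8 with more than 3 reads in an agent group), and 1 differed between the lines. NLRC4, an inflammasome sensor, had 974 and 914 reads in THP-1 under LSD1i at 72 and 24 h against 100 and 125 under vehicle. It rose by 3.24 ± 0.19 in THP-1 and 1.06 ± 0.18 in KASUMI-1, a difference of 2.18 (edgeR, adjusted p = 2.4e-09, 0.0015 and 9.3e-05). NLRP3, another sensor, rose by 0.51 ± 0.16 in KASUMI-1 (adjusted p = 0.0451) and had a value of -0.05 in THP-1. CASP1, the protease that cleaves pro-interleukin 1 beta, rose by 0.44 ± 0.13 in THP-1 (0.0428), and CASP5 had 26 and 76 reads under LSD1i against 6 and 1 under vehicle there. CASP5, among the 3 that rose in THP-1, passed the filter on low counts through those LSD1i libraries alone, so that count is a description. ICAM2, ICAM3 and ICAM4, which encode relatives of ICAM1 bound by the same integrins, rose in THP-1 by 1.31 ± 0.16, 0.65 ± 0.13 and 1.56 ± 0.28 (edgeR, adjusted p = 2.4e-05, 0.00218 and 9.5e-04). Each rose more in THP-1 than in KASUMI-1, by 0.89, 0.63 and 1.85 (adjusted p = 0.0259, 0.0468 and 0.00349), and none passed in KASUMI-1. Between vehicle libraries each was called lower in THP-1 than in KASUMI-1, at log2 values of -1.91, -1.49 and -5.30. ICAM4 had 27 and 28 reads in the THP-1 vehicle libraries at 72 and 24 h.

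**Figure D4:**
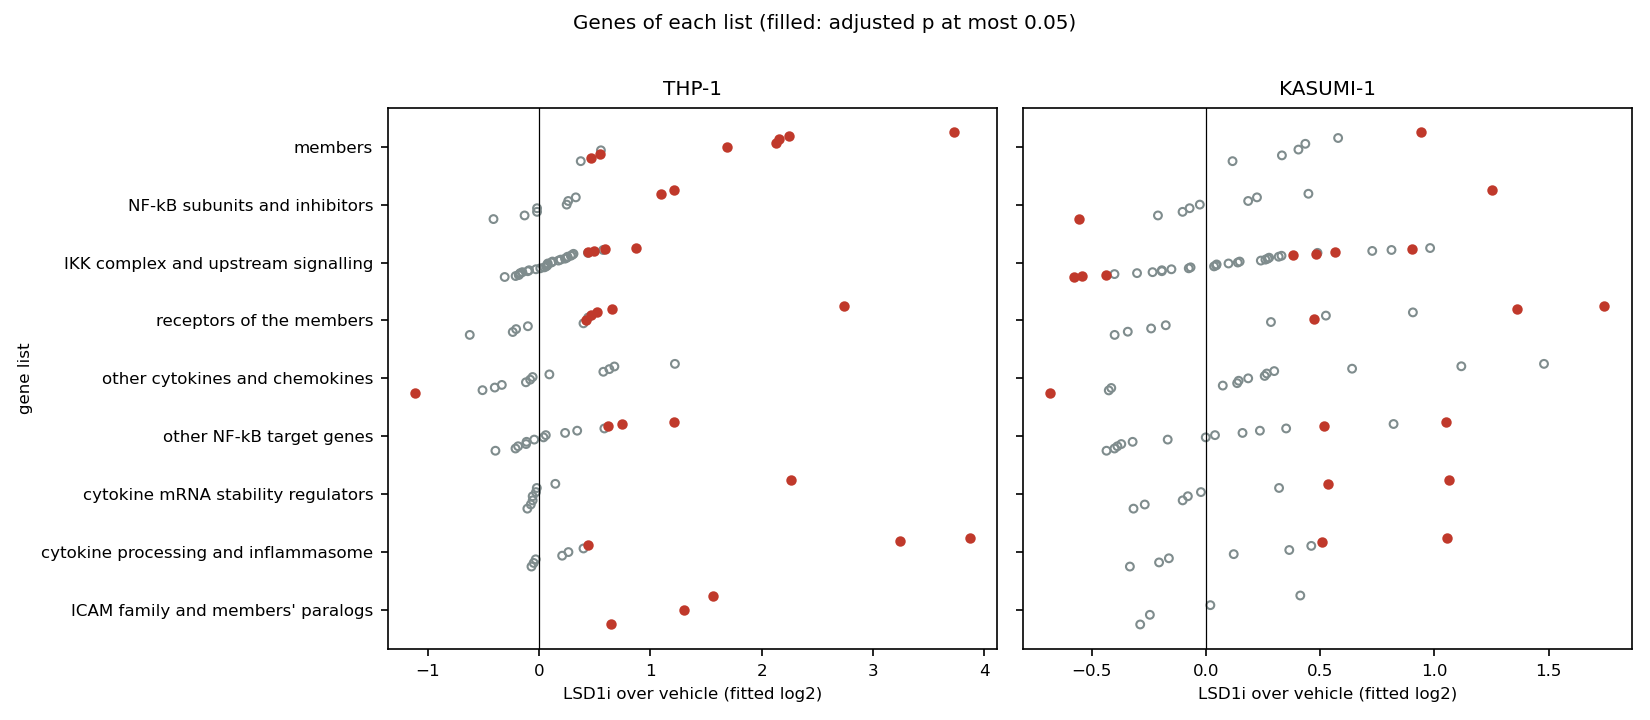
Fitted log2 value of LSD1i over vehicle for each tested gene of the 10 members and of 8 lists of related genes, in THP-1 (left) and KASUMI-1 (right), filled in red where the adjusted p is at most 0.05. The panels have different horizontal scales, and genes with at most 3 reads in either group of a line are left out of its panel. CCL2 at 3.73 stands furthest right among the members in THP-1.

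Across the 8 libraries the profile most like that of CCL2, by Pearson correlation of log2 CPM among 11054 genes, was that of KIAA0513 (r = 0.993), followed by ATG3 (0.989), MIPEP (0.986), PLXDC2 (0.985) and TNF (0.982). Those most like TNF were NLRP12 (0.992), KIAA0513 (0.992), PLXDC2 (0.985), CCL2 (0.982) and PDPN (0.977). All of these are higher in THP-1 than in KASUMI-1 and highest in the THP-1 LSD1i library at 24 h, and the 8 points share lines and pairs, so these values are descriptions. Among the members themselves, r with CCL2 was 0.93 for IL1RN, 0.894 for CCL3 and 0.824 for NFKBIA. It was -0.0524 for IL8, -0.197 for TNFAIP3, -0.288 for IL1B and -0.338 for ICAM1. KASUMI-1 also expressed IL8, TNFAIP3, IL1B and ICAM1, as it did NFKBIA.

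Summed markers of maturing monocytes were higher under LSD1i than under vehicle in every pair. In THP-1 under LSD1i their change between times depended on which markers were summed. The summed level of 11 monocyte and macrophage markers was 11330 and 5135 CPM in THP-1 under LSD1i at 72 and 24 h, against 697 and 1088 under vehicle. In KASUMI-1 it was 466 and 179 under LSD1i at 72 and 6 h, against 55.9 and 49.0 under vehicle. LYZ, the lysozyme gene, made up most of it. The other 10 markers summed to 244 and 293 CPM in THP-1 under LSD1i at 72 and 24 h, against 170 and 203 under vehicle, and to 51.0 and 43.6 in KASUMI-1 under LSD1i at 72 and 6 h, against 17.8 and 19.4 under vehicle. MS4A7 made up most of that sum. Its mean in THP-1 was 184.5 CPM under LSD1i and 149.2 under vehicle, and it was not called there (edgeR, adjusted p = 0.15). CSF1R was next in THP-1, with means of 76.0 and 34.85 CPM. In THP-1 under LSD1i the sum of all 11 was larger at 72 h than at 24 h, and that of the other 10 was smaller. MS4A7 had 5682 and 9333 reads in those libraries at 72 and 24 h. CCL2, TNF, IL1B and IL8 were lower at 72 h there. Of the whole list 5 of 8 tested markers rose in THP-1 and 3 in KASUMI-1, none fell, and MRC1 was at 0 in every library. CD163, among those 5, had 56 and 86 reads in THP-1 under LSD1i at 72 and 24 h, against 0 and 3 under vehicle. It passed the filter on low counts through those LSD1i libraries, so that count is a description. The 3 that rose in KASUMI-1 were LYZ, MS4A7 and CSF1R, with log2 values of 2.82, 1.45 and 1.04. Of the members, IL1RN and IL8 were called higher in that line, at 2.36 and 0.94. ICAM1, NFKBIA, IL1B, TNFAIP3 and TNF were at 0.58, 0.43, 0.40, 0.33 and 0.12 there and did not pass. The part of these markers in the response of the members was not tested. As sums, markers of the lines went with their labels, with 6 KASUMI-1 markers at 109 to 130 CPM in THP-1 and 7470 to 10670 CPM in KASUMI-1. The 6 THP-1 markers summed to 276 to 312 CPM in THP-1 and 97.7 to 131 CPM in KASUMI-1. Single markers did not all do so. CD33, on both lists, was higher in THP-1 vehicle libraries (log2 value 0.79; edgeR, adjusted p = 0.0037). MEIS1, a THP-1 marker, had at most 5 reads in any library. Fibroblast and erythroid markers summed to at most 0.229 in any library, T and NK cell markers to 10.6 to 18.6, and B cell and endothelial markers to at most 77.6 and 45.9.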

How the data were processed

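The deposited table holds raw, unnormalized read counts per gene for the 8 libraries (TruSeq, total RNA, per the labels' protocols). The authors' counts were made with featureCounts 1.5.2, per the file headers, on Ensembl release 54 gene models of NCBI build 36. The submitters' processing notes name TopHat2 2.0.10, FastQC 0.10.0 and hg18. The recorded command sets no strand and no multi-mapping option, so antisense reads cannot be separated and reads shared by copies were left out.

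Libraries were grouped by line, agent and time from the labels and paired by line and time; no replicate numbers pair them. Counts were fitted with edgeR 4.0.16 (R 4.3.3) with TMM scaling, filterByExpr at a minimum count of 10 (16060 genes) and quasi-likelihood F-tests, with a term per pair and an LSD1i coefficient per line (2 residual degrees of freedom, median prior degrees of freedom 15.6, common dispersion 0.0115). P-values were adjusted over all genes at 0.05. Vehicle libraries were fitted alone (15456 genes). Standard errors are the log2 value over the square root of F and are approximate. Single pairs had no test: ratios of TMM-scaled reads carry exact conditional binomial 95% intervals, and calls used a prior count of 2, 2-fold and a mean of at least 2 CPM. Intervals and floors of 3 reads cover counting error only, since reads are not independent molecules. The code was tested on simulated data.

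Of 33045 names, 16840 were current symbols and 3307 older ones; all 10 members and 129 of 130 list genes matched. Members, lists and motifs were chosen with earlier results of these data known. Named list genes were called ones, up to 4 by THP-1 and 2 by KASUMI-1 size per list, and any receptor. Alternatives were RLE scaling, no filter, DESeq2 1.42.0, no pair terms, each pair left out, and, for single pairs, other prior counts, scalings and CPM minimum.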

Additional observations from a re-analysis of the deposited data

Results flagged for a closer look

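TNF, ICAM1 and IL1B had a response to LSD1i that differed between the lines by the direct test of the difference, given in log2 units as THP-1 minus KASUMI-1. TNF differed by 2.04, with scaled ratios of 3.67 and 5.26 in the THP-1 pairs and 0.76 and 1.42 in the KASUMI-1 pairs. ICAM1 differed by 1.67, with ratios of 3.59 and 6.35 in THP-1 and 1.95 and 1.10 in KASUMI-1. IL1B differed by 1.28, with ratios of 2.78 and 3.61 in THP-1 and 1.58 and 1.13 in KASUMI-1. For each gene both THP-1 ratios exceeded both KASUMI-1 ratios, while the early times compared, 24 h in THP-1 and 6 h in KASUMI-1, cannot be told apart from the lines. Without the early pair of KASUMI-1 the differences were 2.55, 1.28 and 1.02 and passed. Without the THP-1 24 h pair they were 1.75, 1.26 and 1.06 and did not pass, at sizes like those for ICAM1 and IL1B without the KASUMI-1 pair.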

How the results depend on the processing

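CCL2, TNF, IL1RN and IL1B were called in THP-1 under all 8 alternatives (3.50 to 4.18, 1.85 to 2.38, 1.99 to 2.24 and 1.45 to 1.84), and ICAM1 under all but the fit without pair terms (adjusted p = 0.0667). Without the replicate block of line and time, members called were 4 in THP-1 (7 with it), 0 in KASUMI-1 (2 with it) and 0 in the difference (3 with it). All genes called were then 454, 100 and 22, against 1503, 1945 and 914. In KASUMI-1, 4 members were called with no filter and 1 with DESeq2. Leaving out 1 pair each gave 5 to 7 members in THP-1, 0 to 4 in KASUMI-1, 0 to 4 in the difference and 5 to 8 (7 in all) between vehicle libraries. Over all genes it gave 386 to 2211, 306 to 2741 and 166 to 1705 calls, and DESeq2 gave 990 in THP-1. With no CPM minimum, 2 members were 2-fold apart in the KASUMI-1 72 h pair, where the main count was 1. A lone remaining pair is assumed to vary like the other line's.

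Signs turned with 1 pair left out for TNF in KASUMI-1 (-0.39 without its 6 h pair; range -0.39 to 0.50), IL1RN in the difference (0.48 without KASUMI-1 72 h; -4.27 to 0.48), NFKBIA in the difference (-0.18 without THP-1 24 h and -0.19 without KASUMI-1 6 h; to 0.25) and IL8 between vehicle libraries (1.33 without KASUMI-1 6 h; from -1.72). For each of these the cause was not tested. Of 259 single-gene values, 217 kept their call and direction, 29 lost and 8 gained a call. Scaling moved the median of all genes by less than 0.1. Depth limits CCL2, IL1RN, CCL3 and CCL4 in KASUMI-1 and CCL4 in THP-1.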
